A study of Mus musculus with 6 samples.

Results

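Cytochrome P450 enzymes of families 1 to 4 were examined in RNA sequencing of hepatocytes, the main cell type of the liver, from mice homozygous for AEG-1-C75S and from their wild-type (WT) counterparts. The members were all protein-coding mouse genes whose symbol is Cyp, a digit from 1 to 4, 1 lower-case letter and a number. This gave 75 genes in 21 subfamilies among 55487 gene rows. Another 6 protein-coding genes carry a further letter in the symbol and lie outside that rule: *Cyp4a12a*, *Cyp4a12b*, *Cyp4a30b*, *Cyp3a41a*, *Cyp3a41b* and *Cyp2ab1*. The further letter stands before the number in *Cyp2ab1* and at the end in the others.

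AEG-1, encoded by *Mtdh*, is a protein of the endoplasmic reticulum membrane, and C75S puts a serine in the place of a cysteine. Heterozygous C75S mice were crossed to give both genotypes, the mice were 6 to 8 weeks old, and RNA was taken 48 h after the hepatocytes were isolated. All libraries, 3 per genotype, carry the treatment label Control, and neither the strain nor the sex is named. The labels do not tie a library to a mouse, so p-values measure only the spread between these libraries, which may be technical.

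P450 enzymes are heme proteins that insert oxygen into their substrates with electrons passed on by P450 reductase, and those of families 1 to 4 sit in the endoplasmic reticulum. Families 1 to 3 are known for the oxidation of drugs, toxins and steroids, and family 4 for the hydroxylation of fatty acids. Their genes are controlled in the liver by ligand-activated factors, among them AHR (family 1), CAR (*Cyp2b10*), PXR (*Cyp3a11*) and PPARA (*Cyp4a* genes), and many of them are known to lose expression when hepatocytes are kept in culture.

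The libraries held 16944723 to 21044292 counts on genes, and C75S replicate 1 was the shallowest. *Mtdh* lay between 191 and 212 CPM (counts per 1000000 counts, after TMM scaling) in all 6 libraries, and its total count cannot show the altered codon. Hepatocyte markers were high, with a summed level of 69725 to 81463 CPM in C75S and 77118 to 84817 CPM in WT over 7 genes. Among 10 markers of Kupffer cells and macrophages, *Clec4f*, *Adgre1* and *Timd4* did not pass 0.190 CPM in any library, whereas *Cd68* lay at 94.8 to 138 CPM. *Xist* was at 0 to 0.390 CPM in libraries of both genotypes. The Y-linked *Ddx3y* was at 115 to 129 CPM in C75S and at 96.0 to 104 CPM in WT (log2 fold change 0.28, edgeR adjusted p = 0.0032). The other tested Y-linked genes, *Eif2s3y* (-0.04), *Kdm5d* (-0.06) and *Uty* (-0.10), had estimates below 0 and were not called.

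The 250 bases before the transcription start are shown for 8 members, as RefSeq gives them for GRCm38.p6. Gene positions given further on are from GENCODE M21, which can place the start elsewhere. By those positions the windows of *Cyp2b10*, *Cyp3a11*, *Cyp2e1* and *Cyp2f2* reach into the gene. Distances to the start are counted from the RefSeq start. They are the members that passed the test between the genotypes, other than *Cyp2c23* and *Cyp2c54*, together with *Cyp2c37* and *Cyp3a11*, which did not pass. *Cyp2c37* is shown as a close relative of *Cyp2c50*, and *Cyp3a11* as the most abundant member. The first 3 belong to the *Cyp2c* cluster: *Cyp2c50* (chr19:40089429-40089678, plus strand), *Cyp2c37* (chr19:39992174-39992423, plus strand) and *Cyp2c38* (chr19:39463076-39463325, minus strand). Capitals in *Cyp2c37* and *Cyp2c38* mark bases that differ from *Cyp2c50* or have no partner in a pairwise alignment with it.
Cyp2c50: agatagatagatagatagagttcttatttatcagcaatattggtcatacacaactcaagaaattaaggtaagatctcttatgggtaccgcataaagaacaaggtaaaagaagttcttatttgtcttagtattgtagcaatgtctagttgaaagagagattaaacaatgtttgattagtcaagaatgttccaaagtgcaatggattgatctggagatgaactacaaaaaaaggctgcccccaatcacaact
Cyp2c37: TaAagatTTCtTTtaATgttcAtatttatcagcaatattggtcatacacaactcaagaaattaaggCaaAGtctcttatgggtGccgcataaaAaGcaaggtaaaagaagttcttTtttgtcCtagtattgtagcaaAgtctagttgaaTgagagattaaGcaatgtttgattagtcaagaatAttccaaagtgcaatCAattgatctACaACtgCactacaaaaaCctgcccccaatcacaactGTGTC
Cyp2c38: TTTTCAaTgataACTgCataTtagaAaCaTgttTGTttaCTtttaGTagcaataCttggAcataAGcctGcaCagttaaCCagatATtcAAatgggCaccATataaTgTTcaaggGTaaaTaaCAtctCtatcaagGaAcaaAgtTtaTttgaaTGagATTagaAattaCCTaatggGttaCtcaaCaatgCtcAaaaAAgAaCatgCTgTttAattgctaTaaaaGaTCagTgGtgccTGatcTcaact

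In *Cyp2c37*, 35 of the 250 bases are marked, and in *Cyp2c38* 82 are. The *Cyp2c37* and *Cyp2c50* windows were 84.31% identical, those of *Cyp2c38* and *Cyp2c50* 59.57%, and those of *Cyp2c38* and its neighbour *Cyp2c39* 75.85%. The other 5 windows are those of *Cyp2b10* (chr7:25897408-25897657, plus strand), *Cyp3a25* (chr5:146009619-146009868, minus strand), *Cyp3a11* (chr5:145879855-145880104, minus strand), *Cyp2e1* (chr7:140763569-140763818, plus strand) and *Cyp2f2* (chr7:27119705-27119954, plus strand). Here capitals mark exact matches, on either strand, to the letters GCGTG (the core of the AHR element), AGGTCA (a half-site of nuclear receptors), CAAAGTCCA (an element of the hepatocyte factor HNF4A) or TATAAA (the box near the start of many genes).
Cyp2b10: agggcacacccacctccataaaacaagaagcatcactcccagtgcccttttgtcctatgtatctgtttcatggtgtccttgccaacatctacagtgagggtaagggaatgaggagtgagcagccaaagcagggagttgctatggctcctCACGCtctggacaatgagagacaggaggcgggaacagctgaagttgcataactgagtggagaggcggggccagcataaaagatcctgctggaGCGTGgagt
Cyp3a25: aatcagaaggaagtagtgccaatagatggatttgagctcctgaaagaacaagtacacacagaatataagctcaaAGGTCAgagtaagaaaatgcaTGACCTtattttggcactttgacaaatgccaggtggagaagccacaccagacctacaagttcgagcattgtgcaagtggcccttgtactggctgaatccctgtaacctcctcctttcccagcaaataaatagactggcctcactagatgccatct
Cyp3a11: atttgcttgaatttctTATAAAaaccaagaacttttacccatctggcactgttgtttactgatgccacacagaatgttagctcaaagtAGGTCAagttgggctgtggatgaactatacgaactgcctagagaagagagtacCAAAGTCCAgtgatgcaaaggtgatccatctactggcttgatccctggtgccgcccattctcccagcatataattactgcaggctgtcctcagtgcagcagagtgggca
Cyp2e1: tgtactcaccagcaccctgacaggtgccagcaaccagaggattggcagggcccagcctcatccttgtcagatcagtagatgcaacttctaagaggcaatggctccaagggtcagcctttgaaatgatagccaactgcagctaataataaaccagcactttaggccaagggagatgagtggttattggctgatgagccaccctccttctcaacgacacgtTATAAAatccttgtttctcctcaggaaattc
Cyp2f2: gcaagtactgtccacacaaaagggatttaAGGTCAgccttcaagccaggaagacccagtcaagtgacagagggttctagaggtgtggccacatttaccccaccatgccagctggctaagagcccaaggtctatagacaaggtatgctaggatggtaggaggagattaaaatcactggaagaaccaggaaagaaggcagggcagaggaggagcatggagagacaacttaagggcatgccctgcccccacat

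Of the 75 members, 62 were matched by symbol to such a window, and 32851 windows of the same length were available in all. CAAAGTCCA was present in 8 of the 62 windows (12.9%) against 0.3835% of all windows, and TATAAA in 24 (38.71%) against 12.37%. AGGTCA was present in 16 (25.81%) against 14.02%, and GCGTG in 12 (19.35%) against 28.16%. A pair of AGGTCA half-sites 1 base apart in the same direction, the layout bound by PPARA with RXR, was in 0 of the 62 windows and in 0.03348% of all. Members of a subfamily share sequence, so these shares do not come from independent windows, and a match of letters is not evidence of binding. Among the windows shown, *Cyp3a25* holds AGGTCA on each strand, *Cyp3a11* holds AGGTCA, CAAAGTCCA and TATAAA, and *Cyp2b10* holds GCGTG on each strand. *Cyp2f2* holds AGGTCA on 1 strand. The letters TATAAA lie 31 to 26 bases before the start in *Cyp2e1* and in *Cyp2c38*, whose capitals mark other bases, and 234 to 229 bases before it in *Cyp3a11*.

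Expression was concentrated in few members. In 11 of the 75 no count was found in any library: *Cyp2c66*, *Cyp2d34*, *Cyp2j7*, *Cyp2j11*, *Cyp2j12*, *Cyp2j13*, *Cyp2t4*, *Cyp4a29*, *Cyp4f18*, *Cyp4f40* and *Cyp4x1*. A total of 3 counts, the limit that a count of 0 allows, corresponds to 0.142 to 0.172 CPM in these libraries and covers counting error only. A further 18 had counts but were too low for the test, the highest at a mean of 0.450 CPM, and 46 were tested. A mean of at least 1 CPM was reached by 45 members, of at least 10 CPM by 29, of at least 100 CPM by 11 and of at least 1000 CPM by 1, *Cyp3a11*.

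Levels of different genes were compared per kilobase of exon, in the order of their means. *Cyp3a11*, the main drug-metabolising enzyme of its subfamily, ranged from 931 to 1421 CPM per kb with a median of 1294. *Cyp2b10*, the classic CAR target, followed at 291 to 510.5 CPM per kb (median 434), and *Cyp2c70*, which makes the muricholic acids of mouse bile, at 242 to 269 (median 246). Each of these ranges lay apart from the next in the order. Then came *Cyp2c29* (median 204 CPM per kb), *Cyp2a12* (206), *Cyp2a5* (132), the coumarin hydroxylase, and *Cyp2d10* (122), where each neighbouring pair overlapped in range. *Cyp3a25* (64.3 CPM per kb), *Cyp2d26* (54.9) and *Cyp3a13* (49.6) completed the first 10, again with overlapping ranges. Length here is the union of all annotated exons, which understates the level of a gene with long exons that these cells do not use.

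**Figure D1:**
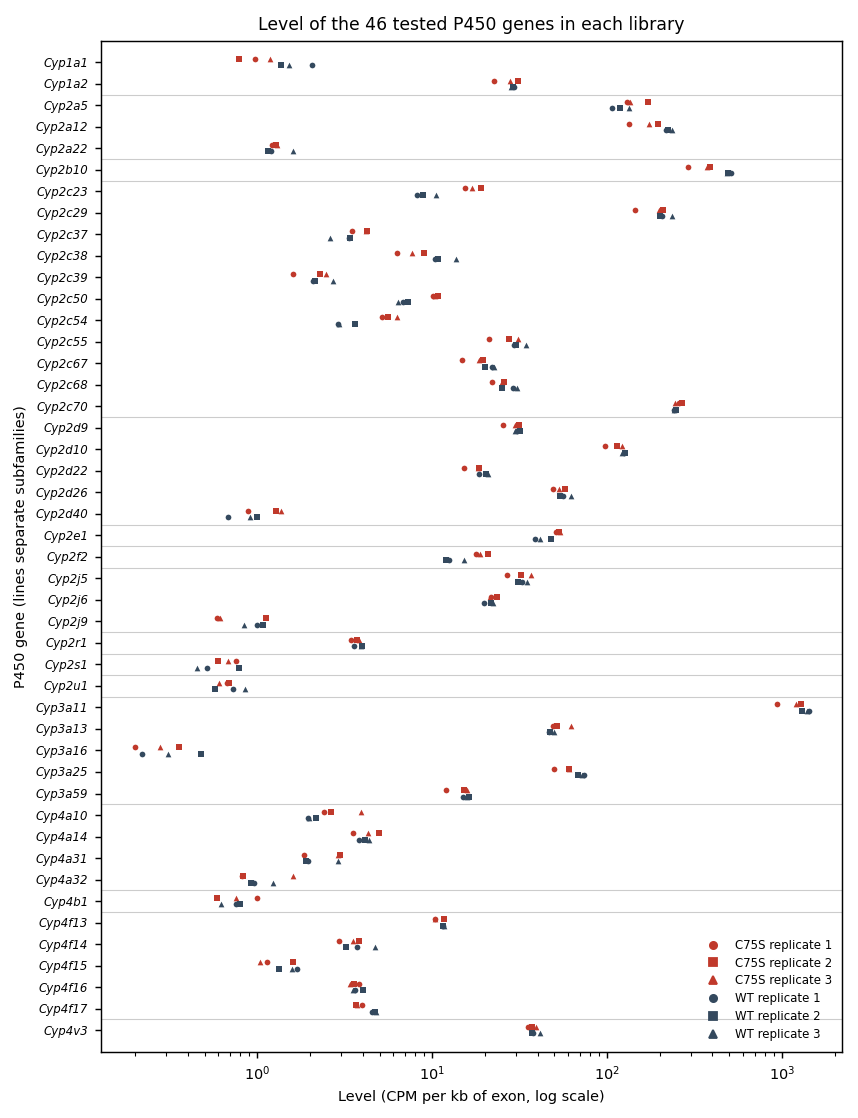
Level of each of the 46 tested P450 genes in each library, in CPM per kb of exon on a log axis. Red symbols are the C75S libraries and dark symbols the WT libraries, with circles, squares and triangles for replicates 1, 2 and 3. *Cyp3a11* lies furthest to the right, and *Cyp3a16* furthest to the left.

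Summed over all members, P450 transcripts lay at 8489, 11265 and 10564 CPM in C75S replicates 1, 2 and 3, and at 12004, 11405 and 12052 CPM in WT. All C75S libraries were below all WT libraries, although C75S replicate 2 was close to WT replicate 2. The log2 ratio of the means was -0.23, with a two-sided exact permutation p of 0.1, the smallest that 3 libraries against 3 allow. Without C75S replicate 1 the ratio was -0.12. *Cyp3a11* alone made up 58.2% of the sum, and without it the ratio was -0.18 (exact permutation p = 0.1). In a bulk sample, fewer cells of a type and less RNA per cell cannot be told apart.

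**Figure D2:**
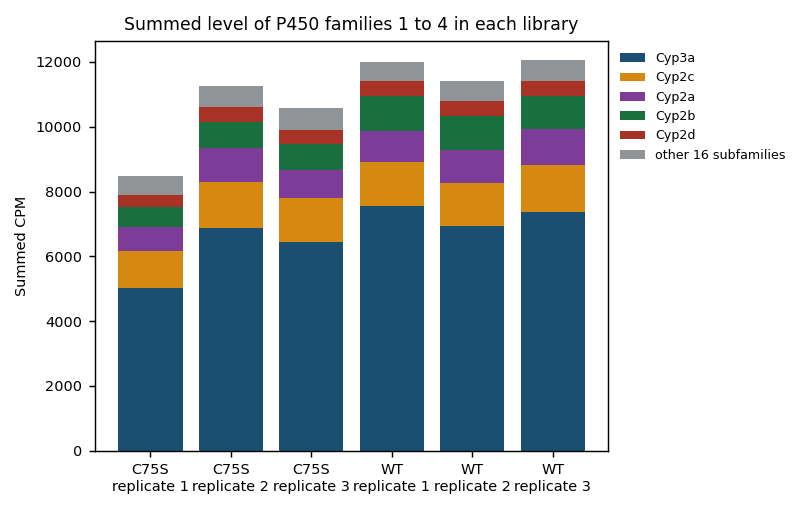
Summed CPM of P450 families 1 to 4 in each library, with stacked bars split by subfamily. C75S replicate 1 is the lowest bar at 8489 CPM, and the 3 WT bars lie between 11405 and 12052 CPM.

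The shares of the sum given here, and that of *Cyp3a11* above, were taken from CPM without division by exon length. By family, *Cyp3a* held 61.1% of the summed P450 level, family 2 held 36.0%, family 4 held 2.34% and family 1 held 0.547%. Within family 2, *Cyp2c* took 12.2% of the total, *Cyp2a* 8.75%, *Cyp2b* 8.14% and *Cyp2d* 4.08%. *Cyp2b* was nearly all *Cyp2b10*, since *Cyp2b9*, *Cyp2b13*, *Cyp2b19* and *Cyp2b23* were too low for the test.

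C75S replicate 1 stood out for these genes. It was the lowest C75S library in 37 of the 46 tested members (80.43%), against 35.01% of all genes tested, and the lowest of all 6 libraries in 7 of the 10 most abundant members. The sum over all members, the share of estimates below 0 and a number of single members are therefore also given without it.

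The comparison of the genotypes asked which P450 transcripts differ in hepatocytes that carry the altered AEG-1. Of the 46 tested members, 8 passed a Benjamini-Hochberg adjusted p of 0.05, taken over all 12741 genes tested, in edgeR's quasi-likelihood test. These 8 are 17.39% of the members tested, where 3.11% of all genes tested passed. *Cyp2c23*, *Cyp2c54*, *Cyp2c50*, *Cyp2f2* and *Cyp2e1* rose in C75S, by 1.24-fold to 1.87-fold. *Cyp2b10*, *Cyp2c38* and *Cyp3a25* fell, and were 1.25-fold to 1.51-fold higher in WT.

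The 5 higher members are 10.87% of those tested, against 1.74% of all genes, and the 3 lower ones 6.52% against 1.37%. Counting all 46 estimates, called or not, 29 (63.0%) were below 0, against 50.9% of all genes, and the median log2 fold change was -0.08 against -0.003. Without C75S replicate 1, 26 of 46 were below 0 (56.5%, against 51.0% of all genes). Libraries of the genotypes did not overlap for 15 of 46 members (32.6%), against 18.0% of all genes tested. Members of a subfamily share sequence and often a gene cluster, so they are not independent of each other.

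**Figure D3:**
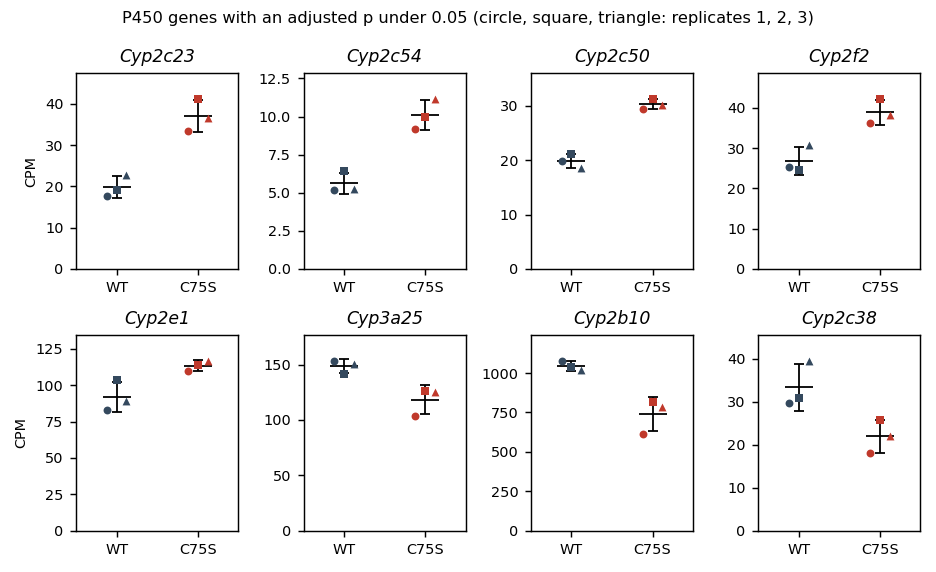
CPM of the 8 called P450 genes in each library, with a horizontal bar at the mean and whiskers of 1 SD (n = 3 libraries). The groups do not overlap in any of the 8 panels, and each axis starts at 0.

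*Cyp2c* held the most tested members, 11 of 46, and the most called ones, 4 (36.4%). Over all members tested 17.39% were called, and over all genes tested 3.11%. *Cyp2b*, *Cyp2e* and *Cyp2f* each had 1 of 1 tested members called, and *Cyp3a* 1 of 5. *Cyp2c23*, an enzyme that turns arachidonic acid into epoxides, had 33.3, 41.2 and 36.6 CPM in the C75S libraries and 17.7, 19.1 and 22.8 CPM in WT. Every C75S library was above every WT library, and the highest WT value was still well below the lowest C75S value. The log2 fold change was 0.90 (SE 0.10, edgeR adjusted p = 2.61e-06). *Cyp2c23* lies at chr19:44005022-44029208 on the minus strand of GRCm38, and none of its 50-base transcript windows occurs in another gene.

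*Cyp2c54* lay at 9.18, 10.0003 and 11.2 CPM in C75S and at 5.17, 6.43 and 5.23 CPM in WT, again with no overlap. Its log2 fold change was 0.85 (SE 0.14, edgeR adjusted p = 0.000679). *Cyp2c50*, its neighbour, stood at 29.5, 31.3 and 30.1 CPM in C75S and 19.8, 21.2 and 18.7 CPM in WT. The spread within each genotype was small beside this gap, with an estimate of 0.61 on the log2 scale (SE 0.08, edgeR adjusted p = 4.85e-05). Both enzymes are known to oxidise arachidonic acid. Their genes lie at chr19:40037940-40073827 (minus strand) and chr19:40089688-40113950 (plus strand).

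*Cyp2c38*, in the same cluster at chr19:39389556-39463075 (minus strand), moved the other way: 18.1, 25.6 and 22.02 CPM in C75S against 29.6, 30.8 and 39.5 CPM in WT. The groups did not overlap, and the log2 fold change was -0.60 (SE 0.13, edgeR adjusted p = 0.0298). The call was lost without C75S replicate 3 (edgeR adjusted p = 0.101, with the range over all 15 alternatives at 1.02e-09 to 0.101).

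Ordered along chromosome 19, the *Cyp2c* genes fell into a stretch of lower and a stretch of higher estimates, an arrangement seen only after the values were known. From *Cyp2c55* through *Cyp2c29*, *Cyp2c38*, *Cyp2c39*, *Cyp2c67* and *Cyp2c68*, all 6 tested genes were below 0, against 50.9% of all genes tested. Of these 6, 1, *Cyp2c38*, was called. The next tested genes, *Cyp2c37*, *Cyp2c54*, *Cyp2c50* and *Cyp2c70*, were all above 0, and 2 of these 4 were called. The estimate of *Cyp2c39* was smaller than its error (-0.12, SE 0.20). Its C75S replicate 1 was at 2.93 CPM, and replicates 2 and 3, at 4.12 and 4.49 CPM, lay within the WT range of 3.79 to 4.94 CPM. Whether the lower stretch holds without C75S replicate 1 was not tested. *Cyp2c23* begins 4998 kb after the start of *Cyp2c55*, apart from the cluster.

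**Figure D4:**
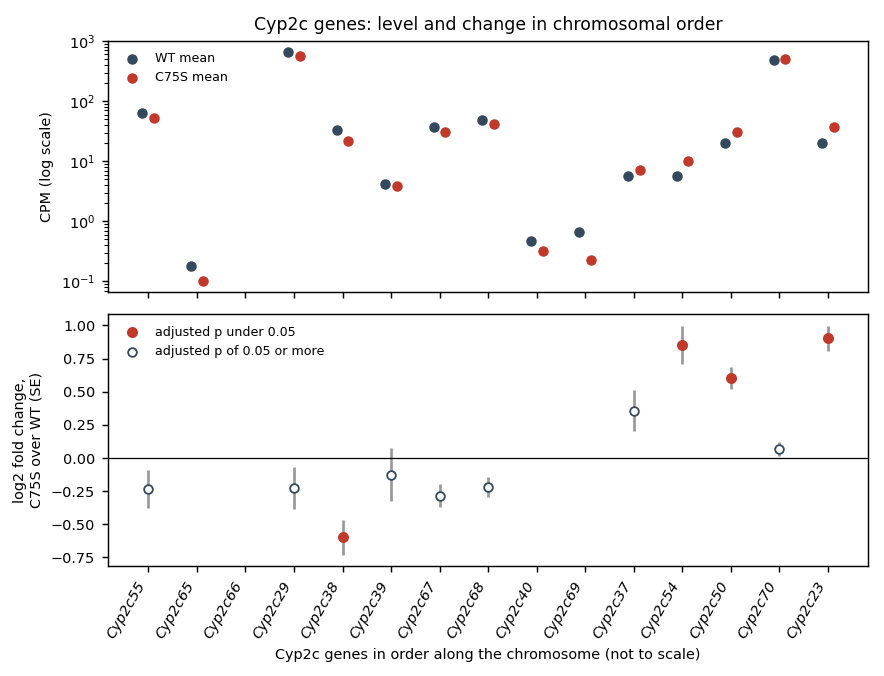
*Cyp2c* genes in their order along the chromosome, with group means in CPM on a log axis above and log2 fold changes with standard errors below. Filled symbols mark the 4 called genes, and untested genes have no point in the lower panel.

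*Cyp2c37* had 6.37, 7.73 and 7.64 CPM in C75S and 6.07, 6.18 and 4.75 CPM in WT, which did not overlap but missed the threshold (log2 fold change 0.36, edgeR adjusted p = 0.295). Neighbouring members are alike in sequence: 16.6% of the 50-base windows of *Cyp2c50*, 25.7% of those of *Cyp2c54* and 30.1% of those of *Cyp2c37* occur in another gene. The same share was 52.8% for *Cyp2c67* and 43.3% for *Cyp2c68*. Reads that match several places were left out of the gene counts. How many of these came from P450 genes was not tested. *Cyp2c29* (log2 fold change -0.23, edgeR adjusted p = 0.642) and *Cyp2c70* (0.07, edgeR adjusted p = 0.630), the most abundant of the subfamily, were not called. Without C75S replicate 1, *Cyp2c29* was at -0.080.

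*Cyp2f2*, known for activating naphthalene, had 36.3, 42.3 and 38.2 CPM in C75S and 25.4, 24.4 and 30.8 CPM in WT. Its lowest C75S library was above its highest WT library, with an estimate of 0.54 on the log2 scale (SE 0.09, edgeR adjusted p = 0.000434). *Cyp2f2* (chr7:27119909-27133660, plus strand) shares no 50-base window with another gene, and an antisense gene, *Gm15883*, overlaps it on the opposite strand, which reverse-strand counting keeps apart.

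*Cyp2e1*, the enzyme that oxidises ethanol and paracetamol, stood at 109.6, 114 and 117 CPM in C75S and 83.1, 104 and 89.2 CPM in WT. The gene lies at chr7:140763739-140774987 (plus strand). The rise was modest, and WT replicate 2 came close to the C75S libraries. The log2 fold change was 0.31 (SE 0.06, edgeR adjusted p = 0.00907). Without WT replicate 3 the adjusted p was 0.0650, the highest over the 15 alternatives, which went down to 1.49e-05.

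*Cyp2b10* had 615, 816 and 787 CPM in C75S and 1078, 1039 and 1018 CPM in WT. All C75S libraries were lower, C75S replicate 1 by the widest margin. The gene lies at chr7:25897620-25926624 (plus strand). The log2 fold change was -0.50 (SE 0.09, edgeR adjusted p = 0.00732), and -0.38 without C75S replicate 1. The adjusted p was 0.0523 without WT replicate 1 and 0.0525 without WT replicate 3, and lay between 3.56e-18 and 0.0525 over the 15 alternatives.

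*Cyp3a25* stood at 104, 126 and 126 CPM in C75S and at 154, 142 and 151 CPM in WT, with no overlap. The log2 fold change was -0.33 (SE 0.06, edgeR adjusted p = 0.00544). *Cyp3a25* (chr5:145977194-146009618, minus strand) shares 26.8% of its windows and is most like *Cyp3a59* at 96.99% identity, and *Cyp3a59* was not called (log2 fold change -0.13, edgeR adjusted p = 0.595). *Cyp3a11*, at 4742, 6576 and 6110 CPM in C75S and 7238, 6607 and 7040 CPM in WT, was lower in all C75S libraries, with C75S replicate 2 and WT replicate 2 almost level. That difference was not called (log2 fold change -0.26, SE 0.10, edgeR adjusted p = 0.267). The estimate was -0.13 without C75S replicate 1 (edgeR adjusted p = 0.387) and -0.36 without C75S replicate 2, where it passed (edgeR adjusted p = 0.0261). It also passed with no filter on low counts (edgeR adjusted p = 0.00760), and the range over the 15 alternatives was 0.00760 to 0.532. *Cyp3a13* was at 0.18 (edgeR adjusted p = 0.207). It was at 0.078 without C75S replicate 3 (edgeR adjusted p = 0.690), and passed without C75S replicate 1 (0.25, edgeR adjusted p = 0.0456) and with no filter (edgeR adjusted p = 0.0378).

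Among the tested *Cyp2a* and *Cyp2d* genes, 0 of 3 and 0 of 5 were called by edgeR, with 1 and 2 at an unadjusted p under 0.05. DESeq2 called 0 in both, and limma-voom 1 and 0. *Cyp2a12*, which hydroxylates bile acids, lay at 463, 676 and 600.4 CPM in C75S and 747, 775 and 815 CPM in WT, without overlap. The log2 fold change was -0.43, but the C75S libraries were widely spread and the adjusted p was 0.252 in edgeR's test. It passed the threshold in 4 of the 15 alternatives, among them the one without C75S replicate 1 (-0.29, edgeR adjusted p = 0.00599). *Cyp2a5* was at 0.29 (edgeR adjusted p = 0.460), and 40.8% of its windows occur in another gene, chiefly *Cyp2a4*. *Cyp2d10* (-0.16) and *Cyp2d26* (-0.11) were not called either, and were at -0.072 and -0.054 without C75S replicate 1. Without C75S replicate 3, *Cyp2d10* passed (-0.23, edgeR adjusted p = 0.0442).

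Of the 2 tested members of family 1, edgeR, DESeq2 and limma-voom called 0, with 1 at an unadjusted p under 0.05. *Cyp1a1*, the most inducible AHR target, was low, at 2.696, 2.18 and 3.31 CPM in C75S and 5.74, 3.798 and 4.22 CPM in WT. The groups did not overlap and the log2 fold change was -0.75 (SE 0.22), but the edgeR adjusted p was 0.0625. It passed in 2 of the 15 alternatives, with no filter (edgeR adjusted p = 0.0201) and without C75S replicate 3 (-0.92, edgeR adjusted p = 0.0404), and reached 0.262 without WT replicate 1. *Cyp1a2* was far higher, at 45.6 to 62.2 CPM over all libraries, and its log2 fold change was -0.08. *Cyp1b1* had 1 count in all, in WT replicate 3.

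Of the 11 tested members of family 4, edgeR, DESeq2 and limma-voom called 0, with 2 at an unadjusted p under 0.05. In *Cyp4a*, whose enzymes hydroxylate fatty acids, all 4 tested members had estimates above 0. Over all genes tested, 50.9% of estimates were below 0. *Cyp4a31* was at 0.21 (SE 0.19) and *Cyp4a32* at 0.06 (SE 0.32). Of these windows of 50 bases, 30.5% in *Cyp4a10*, 21.8% in *Cyp4a31* and 46.8% in *Cyp4a32* occur in another gene. The tested *Cyp4a* genes outside the rule, *Cyp4a12a* and *Cyp4a12b*, were at -0.08 and 0.25 and were not called. *Cyp4a10* had 5.11, 5.59 and 8.28 CPM in C75S and 4.13, 4.58 and 4.17 CPM in WT, without overlap (log2 fold change 0.56, edgeR adjusted p = 0.115). C75S replicate 3 was the highest, and without it the estimate was 0.32 (edgeR adjusted p = 0.587). *Cyp4a14*, with 9.12 to 12.8 CPM in C75S and 9.87 to 11.2 CPM in WT, was at 0.06. All 5 tested members of *Cyp4f* were below 0, against 50.9% of all genes tested. *Cyp4f17* had 12.7, 11.8 and 11.8 CPM in C75S and 14.5, 15.05 and 15.2 CPM in WT (log2 fold change -0.30, edgeR adjusted p = 0.134).

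**Figure D5:**
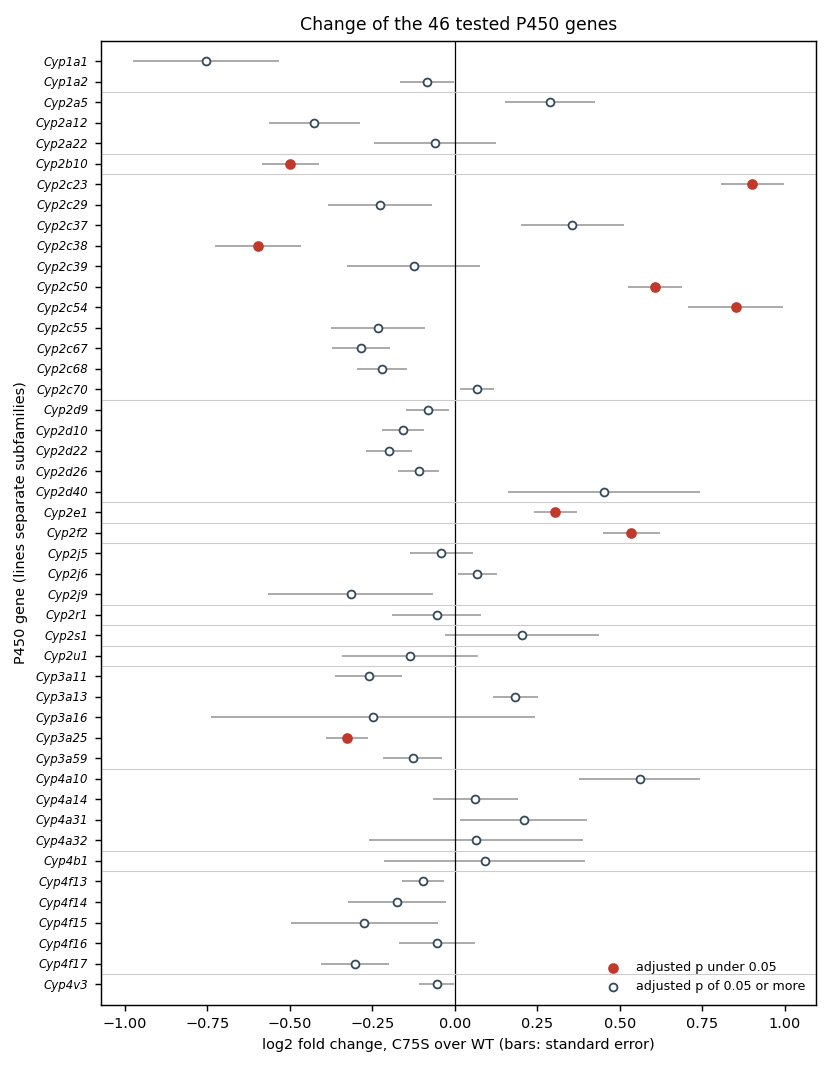
Log2 fold change of C75S over WT for the 46 tested P450 genes, with standard errors, grouped by subfamily. Filled red points are the 8 called genes, 5 to the right of 0 and 3 to the left.

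The remaining subfamilies with a single leading member showed small estimates that were not called. *Cyp2r1*, the vitamin D hydroxylase of the liver, stood at -0.06, *Cyp2u1* at -0.14, *Cyp2s1* at 0.20 and *Cyp4b1* at 0.09 on the log2 scale. *Cyp2j5*, an arachidonic acid epoxygenase, stood at -0.04, *Cyp4f13* at -0.10 and *Cyp4v3*, at 134 to 157 CPM over all libraries, at -0.06. *Cyp2g1* had 0 to 9 counts per library, and *Cyp2w1* 1 count in all.

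The partners of these enzymes were read from lists of genes other than the members. For these and the later lists, the shares over all genes tested were 1.74% called higher and 1.37% called lower. The first list held 7 genes for electron donors and other partners of P450 enzymes: *Por*, *Cyb5a*, *Cyb5b*, *Cyb5r1*, *Cyb5r3*, *Pgrmc1* and *Pgrmc2*. Of these, edgeR, DESeq2 and limma-voom called 0, and 0 had an unadjusted p under 0.05. The median log2 fold change was -0.04. *Por*, P450 reductase, lay at 533, 538 and 636 CPM in C75S and at 582, 628 and 584 CPM in WT. Of 12 genes of heme synthesis and breakdown, 1 was called: *Hmox1*, which breaks heme down, fell from 326, 385 and 317 CPM in WT to 274, 264 and 269.6 CPM in C75S. Its log2 fold change was -0.35 (SE 0.06, edgeR adjusted p = 0.0010), and the list's median was -0.04.

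Of 23 tested receptors and transcription factors that control P450 genes, edgeR, DESeq2 and limma-voom called 0, with 4 at an unadjusted p under 0.05 and a median of -0.06. *Ahr* lay at 128 to 140 CPM over all libraries (log2 fold change -0.06). *Nr1i2*, which encodes PXR, lay at 83.2 to 107 CPM (-0.14), *Nr1i3*, which encodes CAR, at 2.93 to 4.38 CPM (0.09), and *Ppara* at 27.6 to 33.5 CPM (-0.06).

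Other targets of the same factors were counted by list. Of all genes tested, 1.74% were called higher and 1.37% lower, and 50.9% had an estimate below 0. Of 4 tested AHR targets outside the P450 families, 1 fell, *Ugt1a6b* (log2 fold change -0.37, edgeR adjusted p = 0.0210), and all 4 estimates were below 0. Of 10 CAR and PXR targets, *Gsta2* rose (0.35, edgeR adjusted p = 0.0293) and *Gstm3* fell (-0.28, edgeR adjusted p = 0.0111), both being glutathione transferases. Of 14 PPARA targets, 3 fell: *Fgf21*, a hormone of fasting (-0.96, edgeR adjusted p = 0.0122), *Fabp1*, a fatty acid carrier (-0.49, edgeR adjusted p = 0.0164), and *Acsl1*, which activates fatty acids (-0.22, edgeR adjusted p = 0.0403). The list's median was -0.16. The 4 tested *Cyp4a* members, none of them called, had estimates of 0.06 to 0.56 with a median of 0.14.

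Other phase I enzymes outside the P450 families had 2 called members of 16, both lower, where 1.37% of all genes tested were called lower. They were *Fmo2*, a flavin monooxygenase (log2 fold change -0.67, edgeR adjusted p = 0.0014), and *Aox3*, an aldehyde oxidase (-0.33, edgeR adjusted p = 0.0069). Among P450 genes of families 5 and above, 10 of 21 were tested and edgeR called 0, with 5 at an unadjusted p under 0.05 and a median of -0.03. DESeq2 called 2 of these, *Cyp17a1* and *Cyp51*, and limma-voom 1, *Cyp17a1*. Sex-biased P450 genes were low or level. Of 9 female-biased genes only *Cyp3a16* was tested, and the list's summed level was 1.38 to 1.66 CPM in C75S and 1.45 to 2.56 CPM in WT. Of the 4 male-biased genes, *Cyp2d9*, *Cyp4a12a*, *Cyp4a12b* and *Cyp7b1*, all tested, edgeR, DESeq2 and limma-voom called 0, and 0 had an unadjusted p under 0.05.

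Markers of position in the lobule and of other cells were read beside these results. Over all genes tested, 1.74% were called higher, 1.37% lower, and 50.9% of estimates were below 0. Of 6 tested pericentral genes, edgeR, DESeq2 and limma-voom called 0, and 0 had an unadjusted p under 0.05. Of 11 periportal genes, *Cdh1* rose (0.29) and *Hsd17b13* (-0.25) and *G6pc* (-1.05) fell. Among hepatocyte markers, *Fgb* rose (0.32) and the other 6 were not called. *Acta2*, a stellate cell marker, rose (0.82) at 2.28 to 4.99 CPM over all libraries, 1 of 5 tested, and *Krt19*, a cholangiocyte marker, rose (0.80) at 5.19 to 10.6 CPM, 1 of 5 tested. The summed cholangiocyte markers lay at 180 to 234 CPM in C75S and 160 to 168 CPM in WT, without overlap, and the summed stellate markers at 58.0 to 74.6 and 72.1 to 93.5 CPM. A single gene made up most of each sum, *Spp1* for the cholangiocyte and *Reln* for the stellate markers. *Spp1* lay at 105 to 156 CPM in C75S and 83.9 to 96.5 CPM in WT (0.53, edgeR adjusted p = 0.235). *Reln* lay at 49.8 to 67.2 and 65.7 to 88.0 CPM (-0.36, edgeR adjusted p = 0.394). Of 7 tested endothelial and 2 tested Kupffer cell markers, the same 3 tools called 0, with 2 and 0 at an unadjusted p under 0.05. The median of the endothelial markers was 0.41, and 6 of 7 estimates were above 0. The 2 at that unadjusted p, named after their values were seen, were *Lyve1* (0.85), at 2.08 to 2.98 CPM in C75S and 1.17 to 1.66 CPM in WT, and *Pecam1* (0.695), at 2.87 to 3.79 and 1.14 to 2.58 CPM. The endothelial markers summed to 33.8 to 43.8 CPM in C75S and 31.7 to 42.7 CPM in WT, and *Clec4g* and *Vwf* did not pass 0.097 CPM in any library. Most of the endothelial sum was *Stab2*, at 20.5 to 30.1 CPM in C75S and 21.5 to 32.7 CPM in WT (-0.09). The part of these markers in the P450 differences was not tested.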

How the data were processed

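The deposited files are STAR gene count tables (raw counts, Ensembl identifiers) with unstranded, forward and reverse columns. Per the submitters' processing notes, Trim Galore 0.6.6, STAR 2.7.9a and edgeR 3.36.0 were used with mm10/GRCm38, and per the labels' protocols libraries were TruSeq RNA. The reverse-strand column (33 to 34 times the forward one) was used, and summary rows (multimapping, ambiguous and the like) were left out. Symbols, positions and lengths are from GENCODE M21 (GRCm38), which matched 55227 of 55487 rows.

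Genes were filtered with filterByExpr, scaled with TMM and tested with edgeR 4.0.16 in R 4.3.3 by a two-sided robust quasi-likelihood test with genotype as the single term, adjusted by Benjamini-Hochberg over 12741 genes. The procedure was tested on simulated data. Shared windows were exact 50-base matches between the longest transcript of each member and transcripts of other genes. The most similar member and its percent identity came from BLAST 2.17.0. DESeq2 1.42.0, limma 3.58.1 (voom), other scalings, filters, strands, a replicate block and leaving out each library were alternatives. The members and lists were chosen with earlier results of these data known. Named members were those called, the 10 most abundant, the leading member of each subfamily, and those with groups apart and a log2 change of at least 0.3. From the lists, called genes (up to 4 each) and *Por*, *Ahr*, *Nr1i2*, *Nr1i3* and *Ppara* were named. Other genes, and the letters AGGTCA, CAAAGTCCA and TATAAA, were chosen after values were seen. Read length is not given in the sources used here.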

Additional observations from a re-analysis of the deposited data

How the results depend on the processing

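Over 15 alternatives and 29 named members, 413 of 435 estimates kept their direction and side of the threshold. *Cyp2c23*, *Cyp2c50*, *Cyp2c54*, *Cyp2f2* and *Cyp3a25* were called in all 15. Calls were lost for *Cyp2b10* without WT replicate 1 or WT replicate 3, *Cyp2c38* without C75S replicate 3 and *Cyp2e1* without WT replicate 3, and 11 were gained, 4 for *Cyp2a12*, 2 each for *Cyp1a1*, *Cyp3a11* and *Cyp3a13* and 1 for *Cyp2d10*. With no filter, 14 of 64 members fitted were called (21.9%), 6 higher and 8 lower, and 573 of 23278 genes (2.46%). Of the 18 members that only this fit admitted, 0 were called. The added calls were *Cyp1a1*, *Cyp2c55*, *Cyp2c67*, *Cyp2d22*, *Cyp3a11* and *Cyp3a13*, which were all tested in the main fit. The cause was not tested. Leaving out 1 library gave 6 to 11 called members (6 without WT replicate 3). Over all genes it gave 201 to 355 calls against 396, with 201 for WT replicate 2, 246 for WT replicate 3 and 253 for C75S replicate 1. Estimates of 5 members that were not called changed sign when a library was left out. They ranged from -0.19 to 0.027 for *Cyp1a2* and from -0.15 to 0.067 for *Cyp2j5*, both above 0 without C75S replicate 1, where *Cyp4b1* was below 0 (-0.11 to 0.27 over all 6). *Cyp4a14* ranged from -0.063, without C75S replicate 2, to 0.18. Without WT replicate 3, *Cyp2j5* was at 0.0089, *Cyp2u1* at 0.0050 (lowest -0.27) and *Cyp4b1* at -0.0081. The summed level had a log2 ratio of -0.31 to -0.12 over the 6 fits that leave out a library.

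Libraries with the same replicate number did not deviate together (correlations of 0.046, -0.088 and 0.028). Libraries with different numbers gave -0.083 to 0.070. No pairing by replicate number was seen, but with 3 libraries per genotype these correlations cannot show that there is none. A replicate block gave 11 called members, adding *Cyp2a12*, *Cyp2c55* and *Cyp2d22*, and 480 called genes. Of the 29 members under the filter, 18 had counts and were fitted with no filter, and the other 11 had none.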
